A study of Vitis vinifera and Vitis quinquangularis with 24 samples.

Results

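In the berry skin of the wild grape Danfeng-2, 50 gene models were read during ripening that were at or near 0 in the skin of the wine grape Cabernet Sauvignon. They were selected by their level in CPM, the count of a model scaled to a common library total. A member had a mean below 0.1 CPM in each of the 4 Cabernet Sauvignon groups and a mean of 5 CPM or more in at least 1 Danfeng-2 group. Of 27711 models in the tables, 0.180% met this rule, and of the 13993 models at 5 CPM or more in a Danfeng-2 group, 0.357% did. The same limits with the species exchanged gave 107 models. The difference between the species chose the members, so it is described here and not tested.

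The series profiled messenger RNA of berry skin with 3 libraries in each of 8 groups. They comprise Danfeng-2, an accession of the wild Chinese grape Vitis quinquangularis, and Vitis vinifera cv. Cabernet Sauvignon, each sampled at 4 stages of the Eichhorn-Lorenz (E-L) scale. Berries are still hard and green at E-L 33, soften at E-L 34, start to take colour at E-L 35 and are harvested ripe at E-L 38. Each species is represented by 1 accession, so species and accession cannot be told apart, and the labels name no treatment. Whether replicate libraries stem from different plants or pools is also unstated, so the p-values reflect the spread among libraries, which may be technical.

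The skin is where colour, tannins, stilbenes and many defence compounds of the grape are made, and its gene activity is remodelled when the berry turns from growth to ripening. Grape species differ in which genes they carry, how many copies they hold and which copies they switch on. RNA counts measure only the reads assigned to a model, and do not tell a gene that is missing from one that is silent in the tissue sampled. All libraries were counted on the same models at the same positions, and the sources used here do not give the species whose genome supplied them. Models whose identifiers begin with VIT come from an existing annotation. Those called Grape_newGene were predicted anew for this series. No gene names accompany the identifiers in the files, and 0 of 27711 matched the RefSeq table of names (assembly ASM3070453v1). No function is therefore given to any model, and the tissue was not checked against named skin markers. Positions are those of the deposited tables, and the sources used here do not give their genome build.

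Near 0 did not always mean 0. In all 12 Cabernet Sauvignon libraries together, 14 of the 50 members had no count, which allows a level of up to 0.0143 CPM (3 counts over the 12 libraries). The other 36 had at least 1 count. The highest sum was 15 counts in VIT_18s0041g00870, spread over 5 libraries, and no member had more than 4 counts in 1 library. Over all members, Danfeng-2 libraries held 84993 counts and Cabernet Sauvignon libraries 142. Total counts per library were 13201295 to 23095568, so that 1 count was worth 0.0433 to 0.0758 CPM.

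Scaled by library totals, the members together gave a level in Danfeng-2 that changed little over ripening, although single models changed widely. This scaling sets E-L 38 lower than that of the stage test below (median log2 shift -0.25 for E-L 38 over E-L 33). In a library the highest 2 members gave 112.2 to 233.6 CPM of the sum, and the others 255.8 to 369.1 CPM. The summed level in the 3 libraries was 602.7, 417.2 and 421.5 CPM in E-L 33 skin, 468.2, 460.7 and 457.9 CPM in E-L 34 skin, 525.7, 475.2 and 469.3 CPM in E-L 35 skin, and 454.1, 457.2 and 464.3 CPM in E-L 38 skin. The means were 480.5 ± 105.9, 462.3 ± 5.36, 490.1 ± 31.0 and 458.5 ± 5.21 CPM (SD, n = 3) in that order. In Cabernet Sauvignon the sums were 0.446 ± 0.275, 0.865 ± 0.469, 0.675 ± 0.311 and 0.660 ± 0.0494 CPM. At E-L 33 and E-L 35 the high library was replicate 1.

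Those 2 Danfeng-2 libraries, with Cabernet Sauvignon E-L 34 replicate 3, stand apart from their partners across the whole series. Among the members, Danfeng-2 E-L 35 replicate 1 lay outside the range of its partners in 47 of 50 models, by at least 2-fold in 19. It lay on the side of the E-L 38 mean in 40 (80.0%, against 65.6% of all models at 5 CPM). Of the 13993 models at 5 CPM in Danfeng-2, it lay outside in 12910, by at least 2-fold in 2115. Danfeng-2 E-L 33 replicate 1 lay outside its partners in 45 models, by at least 2-fold in 20. It lay on the side of the E-L 34 mean in 25 of 50 (against 63.1%). Of the same 13993 models it lay outside in 13019, by at least 2-fold in 2400. Cabernet Sauvignon E-L 34 replicate 3 held 30 counts of the members, and the other 11 Cabernet Sauvignon libraries 4 to 17. Without these 3 libraries the rule again gave 50 models, 46 of them the same. The part of these libraries in a result is given by the value without them where that value was computed and moved.

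The 8 members with the highest level in a Danfeng-2 group had a stage mean of 21.1 CPM or more. The highest was VIT_03s0038g00500 on chromosome 3, from 457060 to 511819 on the plus strand. Its Danfeng-2 libraries had 194.8, 109.0 and 113.4 CPM in E-L 33 skin, 129.1, 137.7 and 138.5 CPM in E-L 34 skin, 122.0, 113.3 and 105.0 CPM in E-L 35 skin, and 60.7, 60.9 and 67.3 CPM in E-L 38 skin. Every E-L 38 library was below every library of the earlier stages. Its 12 Cabernet Sauvignon libraries held 2 counts in all, against 20488 in Danfeng-2. That is a ratio of 11940.3 with a 95% interval of 3305.0 to 98601.5, which covers counting error only. VIT_14s0036g00990 (chromosome 14, 11481165 to 11482783, plus) was read at a similar height throughout. It had 38.8, 51.4 and 52.3 CPM in E-L 33 skin, 55.2, 51.3 and 50.2 CPM in E-L 34 skin, 57.6, 77.3 and 85.9 CPM in E-L 35 skin, and 51.5, 58.5 and 52.6 CPM in E-L 38 skin. Cabernet Sauvignon libraries held 3 counts of it and Danfeng-2 libraries 10195.

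The members next in height differed in stage. VIT_18s0001g12810 (chromosome 18, 10917869 to 10933193, minus) was highest in ripe skin, with 0.193, 0.896 and 0.373 CPM in E-L 33 skin, 1.90, 1.64 and 1.31 CPM in E-L 34 skin, 41.2, 7.45 and 6.25 CPM in E-L 35 skin, and 70.5, 72.3 and 74.8 CPM in E-L 38 skin. VIT_12s0035g02100 (chromosome 12, 22457742 to 22461088, minus) had 6.57, 6.16 and 5.97 CPM, 14.7, 15.5 and 15.5 CPM, 32.2, 13.5 and 11.6 CPM, and 64.5, 62.7 and 62.0 CPM at the same stages. In both models the odd value at E-L 35 was replicate 1, which lay toward E-L 38. VIT_18s0117g00450 (chromosome 18, 23870693 to 23873479, plus) had 20.4, 22.2 and 20.8 CPM in E-L 38 skin and no library above 2.31 CPM at the other stages.

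Other high members had their highest mean before E-L 38. VIT_15s0046g00500 (chromosome 15, 17448998 to 17467707, plus) had 83.1, 31.1 and 31.3 CPM in E-L 33 skin, 28.7, 21.8 and 27.1 CPM in E-L 34 skin, 3.54, 14.8 and 16.2 CPM in E-L 35 skin, and 2.86, 4.02 and 3.86 CPM in E-L 38 skin. It had 4209 counts in Danfeng-2 and 0 counts in all Cabernet Sauvignon libraries. With 3 counts over those 12 libraries as the floor, it was at least 1635.3-fold higher. VIT_09s0018g01800 (chromosome 9, 19158475 to 19159779, minus) was read at E-L 33 and nowhere else, with 73.9, 7.28 and 8.74 CPM there and 0 counts in the 9 later Danfeng-2 libraries and in Cabernet Sauvignon. VIT_00s0346g00080, on no assigned chromosome (Un, 24758320 to 24771491, plus), had its highest mean at E-L 35, but that rise over E-L 34 was not called (log2 fold change 0.79, SE 0.38, adjusted p = 0.17, edgeR with Benjamini-Hochberg adjustment). Its values were 5.47, 14.5 and 14.3 CPM in E-L 33 skin, 14.9, 14.5 and 15.4 CPM in E-L 34 skin, 44.1, 18.2 and 17.8 CPM in E-L 35 skin, and 5.92, 5.80 and 5.53 CPM in E-L 38 skin. From E-L 35 to E-L 38 it fell by 1.93 on the log2 scale (SE 0.40, adjusted p = 0.0026). For E-L 38 over E-L 33 it was called only without E-L 33 replicate 1 (log2 fold change -1.04). The highest library of each of these 3 models was a replicate 1 that stands apart.

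**Figure D1:**
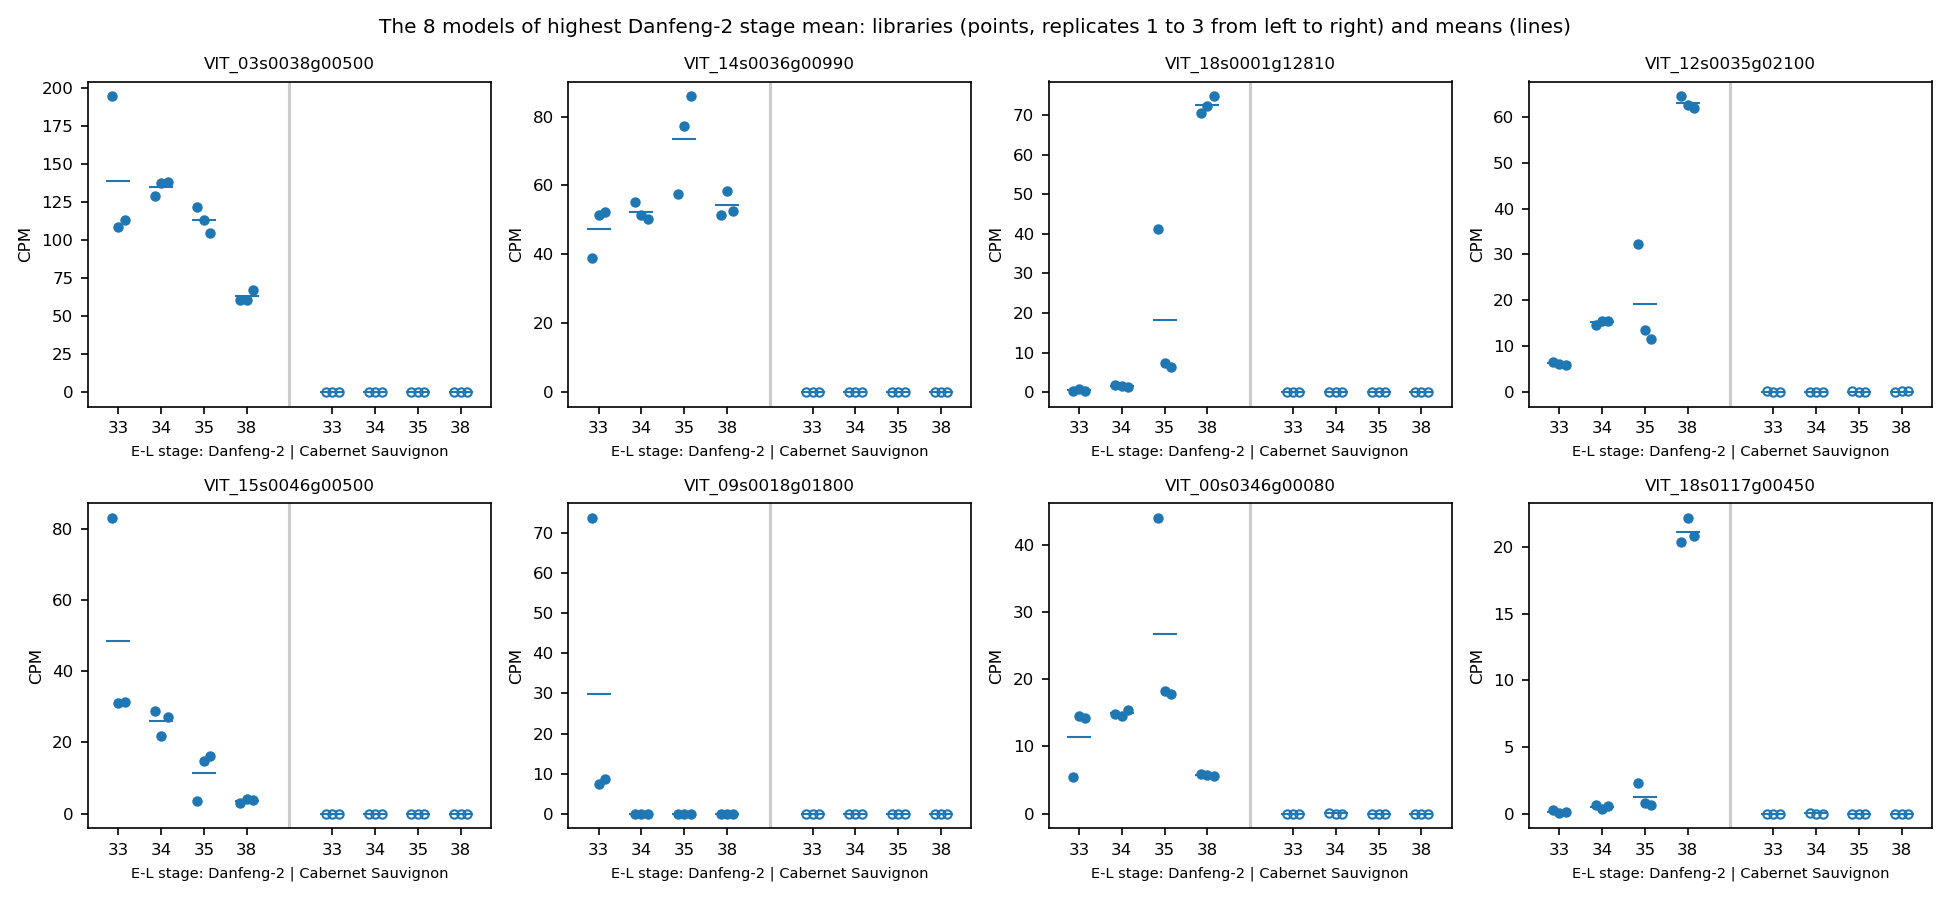
Level in CPM (linear axis from 0, 1 panel a model) of the 8 members with the highest Danfeng-2 stage mean, in each library by E-L stage, with Danfeng-2 as filled points on the left, Cabernet Sauvignon as open points on the right and lines at the means of 3 libraries. The Cabernet Sauvignon points lie at or near 0, and the Danfeng-2 points of VIT_18s0001g12810 reach 70.5 to 74.8 CPM in E-L 38 skin.

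Most members were read at low levels. The highest stage mean was below 10 CPM in 32, from 10 to below 50 CPM in 14 and at 50 CPM or more in 4, with a median of 8.29 CPM. For all models at 5 CPM or more in a Danfeng-2 group that median was 38.8 CPM. Per length, in FPKM (fragments scaled by model length and library depth, the authors' values), the highest stage mean of a member was 1.39 to 91.4 with a median of 9.14, against 26.3 for the same background. Per length the order of the leading models differed from that in CPM. VIT_03s0038g00500 stood first with a mean of 91.4 FPKM at E-L 33, followed by VIT_12s0035g02100 with 84.7 FPKM at E-L 38. The newly predicted Grape_newGene_273, 393 bp long and the shortest member, came next with 76.3 FPKM at E-L 34, ahead of VIT_18s0001g12810 with 63.5 FPKM at E-L 38. The median length was 1261.5 bp in members and 1807 bp in models at 5 CPM in Danfeng-2, and 23 members lay on the plus strand and 27 on the minus strand.

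The members showed no common stage profile. The highest stage mean fell at E-L 33 in 11, at E-L 34 in 11, at E-L 35 in 14 and at E-L 38 in 14 (22%, 22%, 28% and 28%). Among all models at 5 CPM in Danfeng-2 the shares were 28.9%, 18.1%, 32% and 21%. The lowest stage was E-L 38 in 30 of 50 members (60.0%, against 53.2%), E-L 33 in 10, E-L 34 in 9 and E-L 35 in 1. In bulk skin, fewer cells that hold a transcript and less of it per cell cannot be told apart. The 11 models highest at E-L 33 fell by steps, to medians of 72.7%, 51.9% and 24.6% of their highest mean at the 3 later stages. The 14 models highest at E-L 38 had medians of 7.1%, 11.6% and 27.7% at the 3 earlier stages. These medians include Danfeng-2 E-L 33 replicate 1 and E-L 35 replicate 1, which stand apart, and were not computed without them. The E-L 35 library lay toward E-L 38 in 40 of the 50 members. In VIT_18s0001g12810, for example, the E-L 35 libraries had 41.2, 7.45 and 6.25 CPM.

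**Figure D2:**
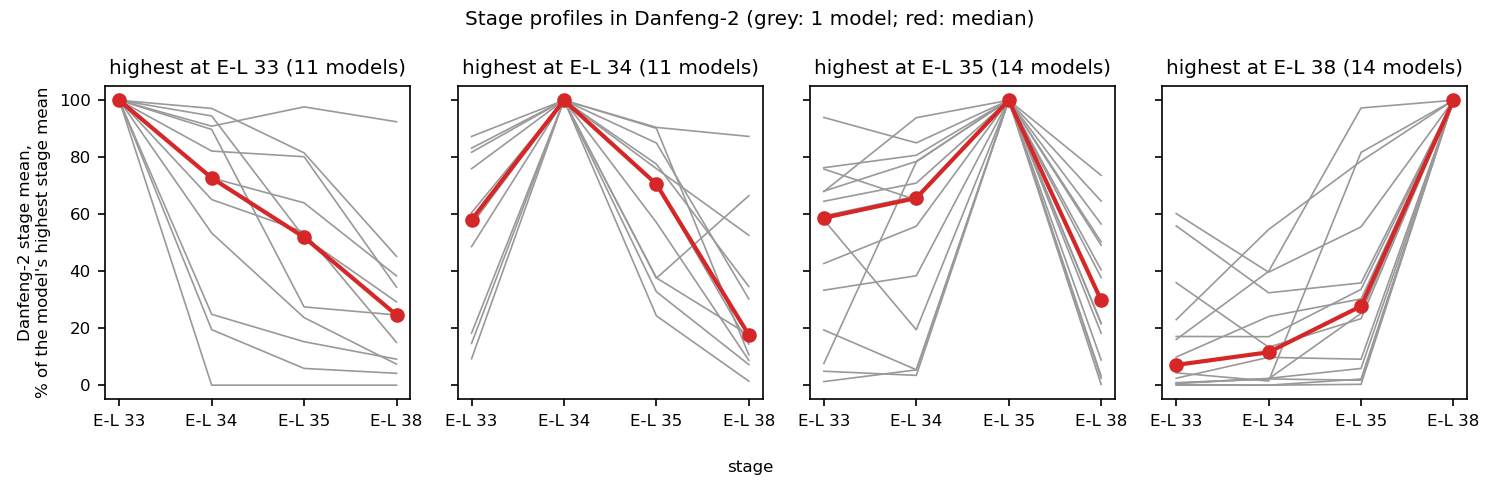
Danfeng-2 stage means as a percent of each member's highest stage mean (vertical axis) at the 4 E-L stages (horizontal axis), in 1 panel for each stage of the highest mean, with a grey line a model and the median in red. The 14 models highest at E-L 38 had a median of 27.7% at E-L 35, whereas the 11 highest at E-L 34 still had a median of 70.5% at E-L 35.

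Few of them reached 5 CPM at every stage, although 44 to 49 of the 50 had a count in each Danfeng-2 library. The level of 5 CPM was reached at 1 stage by 24 members, at 2 by 9, at 3 by 10 and at all 4 by 7 (14%, against 80.1% of all models at 5 CPM in Danfeng-2). The highest stage mean was under 2-fold above the lowest in 7 members (14%, against 57.0%), 2-fold to 10-fold in 22 (44.0%, against 34.1%) and over 10-fold in 21 (42.0%, against 8.90%). The background holds many models of higher level, for which 5 CPM at every stage is easier to reach, and the rule fixed the members' level at 1 stage only. These shares are therefore a description.

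**Figure D3:**
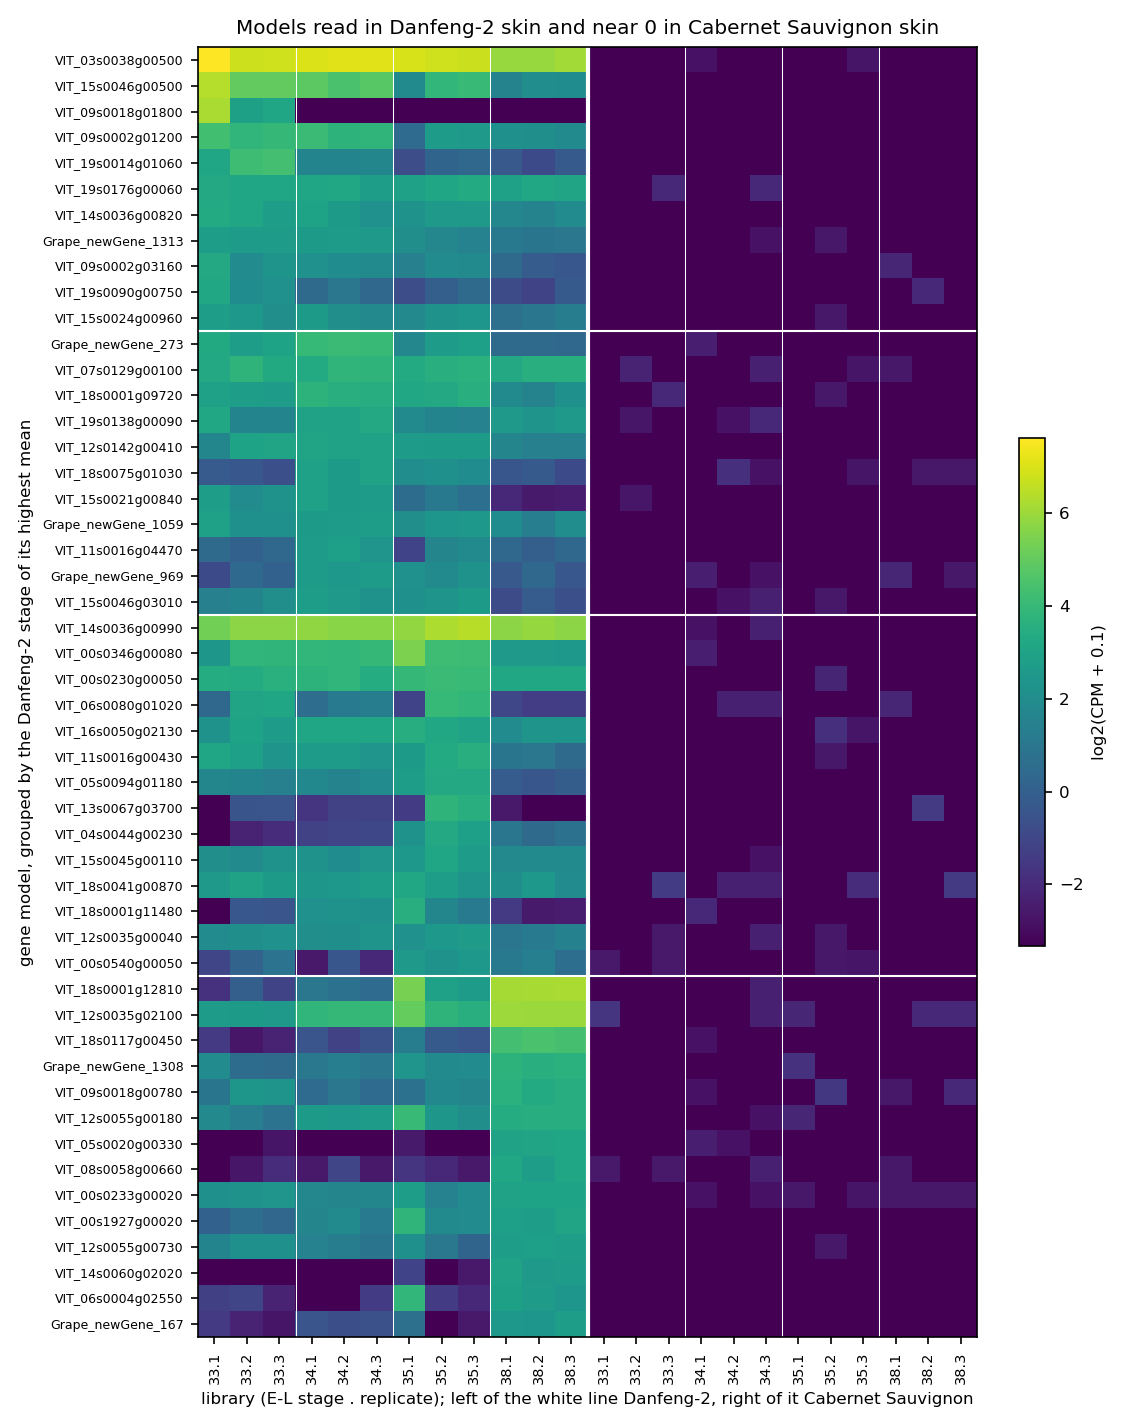
Level of the 50 members as log2(CPM + 0.1) (colour scale) in each of 24 libraries, with Danfeng-2 left of the thick white line and Cabernet Sauvignon right of it, rows grouped by the stage of the highest Danfeng-2 mean and ordered by that mean. The first Danfeng-2 columns of E-L 33 and of E-L 35 lie outside their partners in 45 and 47 rows. Of 13993 models at 5 CPM in Danfeng-2, 13019 and 12910 did so. In all Cabernet Sauvignon columns, 14 rows are at the lowest colour.

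Of the members read at 5 CPM or more at all stages, 5 varied least. VIT_19s0176g00060 (chromosome 19, 16132336 to 16146668, plus) had means of 9.01 ± 0.575, 8.19 ± 1.38, 8.80 ± 1.37 and 8.33 ± 0.817 CPM (SD, n = 3) at the 4 stages, a ratio of highest to lowest of 1.10. Its single libraries lay between 6.62 and 10.3 CPM, and all stages overlapped. VIT_07s0129g00100 (chromosome 7, 15372179 to 15378097, minus) had 11 ± 2.17, 12.6 ± 2.16, 11.4 ± 1.14 and 11 ± 1.13 CPM, a ratio of 1.15, and lies wholly inside the span of VIT_07s0129g00040, VIT_07s0129g00060 and VIT_07s0129g00090. VIT_14s0036g00990, VIT_00s0230g00050 and VIT_03s0038g00500 had ratios of 1.55, 1.77 and 2.21. VIT_00s0230g00050 (Un, 15627626 to 15634580, minus) had means of 11.1 ± 0.784, 12.8 ± 1.80, 16.3 ± 0.938 and 9.22 ± 0.138 CPM. None of these 5 passed the call for E-L 38 over E-L 33 in edgeR's quasi-likelihood test. The log2 fold changes were 0.13, 0.25, 0.45, -0.02 and -0.91 in the order named above, and VIT_14s0036g00990 and VIT_03s0038g00500 had Benjamini-Hochberg adjusted p of 0.028 and 0.0043 but stayed under 2-fold.

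The direction of small changes depended on the scaling. The test scaled libraries by TMM factors, which trim the most changed models. With total counts alone the median log2 fold change of all tested models shifted by -0.28 for E-L 38 over E-L 35 and by -0.25 for E-L 38 over E-L 33. For the earlier steps the shift, total counts minus TMM, was -0.01 and 0.04. With total counts VIT_03s0038g00500 was called lower at E-L 38 (log2 fold change -1.15), VIT_19s0176g00060 had -0.11 and VIT_07s0129g00100 -0.00, so no direction is given for these last models. Of 49 members tested, the same scaling called 10 higher and 19 lower for E-L 38 over E-L 35. For E-L 38 over E-L 33 it called 13 higher and 17 lower. Of all 17073 models tested, it called 1219 higher and 3522 lower for E-L 38 over E-L 35. For E-L 38 over E-L 33 those numbers were 1503 and 3896.

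Stage changes within Danfeng-2 are a contrast that the rule did not use directly. Even so, a member that is low at other stages had to reach 5 CPM at 1 stage, so the counts below stand beside those of all tested models and support nothing about the members as a set. For the 24 members at 5 CPM at 1 stage only, a change to or from that stage was favoured in advance. Their fold changes and p-values for such a change are a description. The test was fitted to the 12 Danfeng-2 libraries and 17073 models, and a call needed an adjusted p below 0.05 and at least a 2-fold change. It covered 49 of the 50 members. VIT_13s0067g03700 (13_random, 2070608 to 2073107, minus) missed the filter on low counts, with 0.289, 13.5 and 11.9 CPM in E-L 35 skin and means of at most 0.419 CPM at other stages.

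From E-L 33 to E-L 34, as berries softened, 6 members rose (12.2% of those tested, against a background of 2.89%) and 4 fell (8.16%, against 4.19%). From E-L 34 to E-L 35, 5 rose (10.2%, against 3.85%) and 5 fell (10.2%, against 3.59%). From E-L 35 to E-L 38, 11 rose (22.4%, against 9.52%) and 14 fell (28.6%, against 14.4%). Over the whole span, E-L 38 over E-L 33, 14 rose (28.6%, against 11.5%), 15 fell (30.6%, against 18%) and 20 did not pass. The median log2 fold changes of members were 0.17, 0.06, -0.47 and -0.02 in that order, beside -0.03, 0.03, -0.09 and -0.05 over all tested models. Among the called members the libraries of the compared stages did not overlap in 9 of 10, 9 of 10, 24 of 25 and 29 of 29. A call by itself favours libraries that do not overlap. The share among all called models was not computed, so these numbers mark no trait of the members. Without the 2 Danfeng-2 libraries that stand apart, that first step had 13 members higher and 6 lower, of 50 tested, where 5.28% and 6.73% of all models did. That step had between 3 calls (without E-L 34 replicate 1) and 16 calls (without E-L 35 replicate 1) when 1 library was left out. Over all models, 329 were higher and 357 lower of 17389 in the first of these fits. In the second, 652 were higher and 986 lower of 17354.

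Of the 5 members that rose most in ripe over green skin, VIT_18s0001g12810 already rose on the step before the last, E-L 35 over E-L 34 (log2 fold change 3.45, SE 0.70, adjusted p = 0.0079, edgeR with Benjamini-Hochberg adjustment). The other 4 had no stage mean above 1.24 CPM before E-L 38. They met the limit of 5 CPM at E-L 38 only, so their rise to that stage was favoured in advance and is a description. VIT_14s0060g02020 (chromosome 14, 1613773 to 1615727, minus) had 7.78, 5.88 and 6.51 CPM in E-L 38 skin and 0 counts in the 3 E-L 33 libraries, which makes it at least 117.6-fold higher (floor of 3 counts in the group). This model was also at 0 at E-L 34 and had 0.362, 0 and 0.0702 CPM in E-L 35 skin. VIT_05s0020g00330 (chromosome 5, 2171270 to 2173217, plus) had 7.85, 8.33 and 8.41 CPM in E-L 38 skin and 0, 0 and 0.0533 CPM in E-L 33 skin. That is 341 counts against 1, a ratio of 426.6 with a 95% counting interval of 76.1 to 16899.8. All E-L 38 libraries of both models lay far above those of the earlier stages, where VIT_14s0060g02020 had 6 counts, all at E-L 35, and VIT_05s0020g00330 had 2. VIT_18s0117g00450 had 20.4, 22.2 and 20.8 CPM in E-L 38 skin and 0.258, 0.0560 and 0.107 CPM in E-L 33 skin, a log2 fold change of 7.45 (SE 0.56, adjusted p = 2.5e-06, edgeR with Benjamini-Hochberg adjustment). VIT_08s0058g00660 (chromosome 8, 9778439 to 9780659, minus) had 8.98, 6.84 and 8.71 CPM in E-L 38 skin and 0, 0.0560 and 0.160 CPM in E-L 33 skin, with a log2 fold change of 6.85 (SE 0.63, adjusted p = 9.7e-06). VIT_18s0001g12810 completed the group at 7.43 (SE 0.83, adjusted p = 3.9e-05).

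In VIT_05s0020g00330 and 3 others of these 5 rises, a single E-L 33 library moved the fitted fold change by over 1.5 times. Without E-L 33 replicate 3 the log2 fold change was 7.96 in VIT_08s0058g00660. It was 8.17 in VIT_18s0001g12810 without replicate 2 and 8.15 in VIT_18s0117g00450 without replicate 1. These 3 stayed called. VIT_05s0020g00330 had 0 counts at E-L 33 without replicate 3, which leaves a lower bound, at least 91.0-fold higher at E-L 38 (floor of 3 counts over the remaining E-L 33 libraries). VIT_12s0035g02100, with a green level of 6.23 ± 0.306 CPM, rose by a log2 fold change of 3.59 (SE 0.33, adjusted p = 9.8e-06), and it also rose on the first step (1.30, SE 0.31, adjusted p = 0.022).

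The 5 members that fell most differed in when they fell. Of these, VIT_09s0018g01800 and VIT_19s0014g01060 reached 5 CPM at E-L 33 only, so their falls were favoured in advance and are a description. VIT_09s0018g01800 was gone by E-L 34, at least 383.9-fold lower at E-L 38 than at E-L 33 (floor of 3 counts in the group), and at least 111.6-fold lower without E-L 33 replicate 1. Its adjusted p was 0.015 in edgeR, and DESeq2 did not call it. VIT_19s0014g01060 (chromosome 19, 1119857 to 1123798, plus) fell on each of the first steps. It had 8.44, 18.2 and 19.9 CPM in E-L 33 skin, 2.95, 2.95 and 3.17 CPM in E-L 34 skin, 0.506, 1.04 and 1.19 CPM in E-L 35 skin, and 0.732, 0.446 and 0.758 CPM in E-L 38 skin. The log2 fold change over the span was -4.31 (SE 0.39, adjusted p = 8.7e-06). VIT_15s0021g00840 (chromosome 15, 10682329 to 10683562, minus) held its level into softening and then fell. It had 6.76, 3.75 and 4.85 CPM in E-L 33 skin, 7.59, 6.10 and 6.55 CPM in E-L 34 skin, 1.37, 2.07 and 1.47 CPM in E-L 35 skin, and 0.133, 0.0744 and 0.0758 CPM in E-L 38 skin, with a log2 fold change of -5.40 (SE 0.40, adjusted p = 2.4e-06).

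The remaining pair fell with a wide spread. VIT_15s0046g00500 fell by 3.53 on the log2 scale (SE 0.58, adjusted p = 0.00053), and by 2.84 without E-L 33 replicate 1. VIT_06s0080g01020 (chromosome 6, 21107969 to 21109289, plus) had 0.399, 0.298 and 0.303 CPM in E-L 38 skin and 1.16, 8.23 and 8.69 CPM in E-L 33 skin, with a log2 fold change of -3.87 (SE 1.19, adjusted p = 0.019). Between those stages it had 0.362, 16.1 and 14.8 CPM in E-L 35 skin, so that replicate 1 was the low library at both E-L 33 and E-L 35. Its call was lost with limma on FPKM and when E-L 38 replicate 1, 2 or 3 was left out.

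Newly predicted models made up 6 of the 50 members (12%), against 679 of 27711 models in the tables (2.45%) and 194 of the 13993 models at 5 CPM in Danfeng-2 (1.39%). In the 107 models near 0 in Danfeng-2 instead, 5 were newly predicted (4.67%). Their stage patterns differed. Grape_newGene_273 (chromosome 12, 19334964 to 19335446, minus) peaked at softening, with a mean of 8.22 ± 1.69 CPM (SD, n = 3) in E-L 33 skin, 15.9, 17.6 and 17.1 CPM in E-L 34 skin, 3.25, 6.35 and 7.02 CPM in E-L 35 skin, and 1.26, 1.26 and 1.14 CPM in E-L 38 skin. It rose to E-L 34 (log2 fold change 1.04, SE 0.26, adjusted p = 0.025) and fell on both later steps. Grape_newGene_1308 (chromosome 3, 16170411 to 16171411, plus) was highest in ripe skin, with 13.4, 11.4 and 12.5 CPM in E-L 38 skin and 3.74, 1.34 and 1.28 CPM in E-L 33 skin (log2 fold change 2.79, SE 0.38, adjusted p = 0.00015, and 3.52 without E-L 33 replicate 1). Grape_newGene_167 (chromosome 11, 9648458 to 9649256, plus) also rose, to 5.82 ± 0.706 CPM in E-L 38 skin against 0.141 ± 0.105 CPM in E-L 33 skin, and had 0 counts in Cabernet Sauvignon. Grape_newGene_1308 and Grape_newGene_167 reached 5 CPM at E-L 38 only, so these rises were favoured in advance and are a description.

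Grape_newGene_1313 (chromosome 3, 1060067 to 1061748, minus) stepped down with little spread between libraries. It had 6.76, 6.44 and 6.40 CPM in E-L 33 skin, 6.11, 6.56 and 5.86 CPM in E-L 34 skin, 4.12, 3.24 and 2.81 CPM in E-L 35 skin, and 2.06, 1.79 and 1.89 CPM in E-L 38 skin, a log2 fold change over the span of -1.52 (SE 0.18, adjusted p = 5.2e-05). Grape_newGene_1313 lies wholly inside VIT_03s0038g01520 on the same strand. That model had means of 31.7 ± 2.26, 32.3 ± 3.32, 21.9 ± 8.95 and 22.9 ± 1.21 CPM in Danfeng-2. In Cabernet Sauvignon its highest mean was 2.17 ± 0.313 CPM, at E-L 33. Grape_newGene_1059 (18_random, 4963584 to 4969208, minus) passed none of the tests, with means of 5.44 ± 1.76, 6.54 ± 0.355, 4.97 ± 0.751 and 3.44 ± 0.853 CPM. It had 922 counts in Danfeng-2 and 0 counts in Cabernet Sauvignon. Grape_newGene_1059 lies wholly inside VIT_18s0001g06550 on the same strand, and VIT_18s0001g06700 and VIT_18s0001g06720 on the other, all read in both species. The sixth, Grape_newGene_969, is described with its neighbour below.

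The members were spread over most of the genome rather than gathered in a few places. Chromosome 18 held 7, chromosome 12 held 6, chromosome 15 held 5, chromosomes 9 and 19 held 4 each, and chromosomes 3, 11 and 14 held 3 each. Chromosomes 5 and 6 held 2 each, and chromosomes 4, 7, 8 and 16 held 1 each. A further 5 were on no assigned chromosome and 2 on scaffolds assigned to chromosomes 13 and 18 without a place. Chromosomes 1, 2, 10, 13 and 17 held none. As a share of the models at 5 CPM in Danfeng-2, members were 1.06% on chromosome 15, 1.01% on chromosome 12, 0.794% on chromosome 9, 0.712% on chromosome 19 and 0.693% on chromosome 18, against 0.357% in all. These counts are too few to rank chromosomes, and no test was made.

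**Figure D4:**
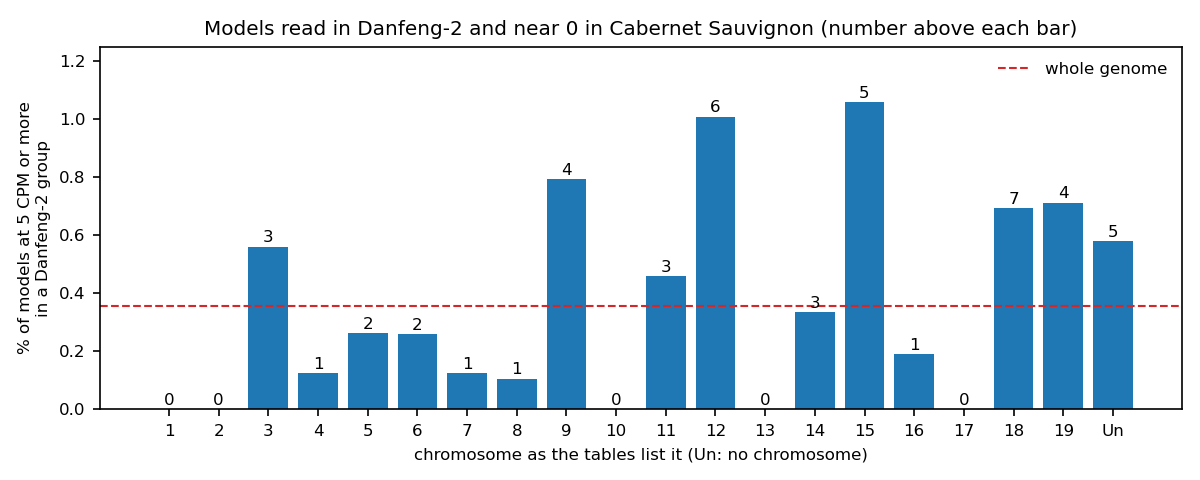
Members as a percent of the models at 5 CPM or more in a Danfeng-2 group (bars from 0) on each chromosome, with the number of members above each bar and the whole-genome share of 0.357% as a dashed line. The 2 members on scaffolds without a place are left out. Chromosomes 15 and 12 reach 1.06% and 1.01%, with 5 and 6 members.

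Neighbouring models gave the local setting. Of the 100 models next to a member, 1 on each side, 43 (43.0%) were read in Cabernet Sauvignon at 1 CPM or more in a group, against 61.5% of all models. Another 32 (32.0%, against 24.6%) were below 0.1 CPM in every group of both species. A further 9 (against 0.758% of all models) were below 0.1 CPM in Cabernet Sauvignon and at 1 CPM or more in Danfeng-2. In 5 of those 9 the gap to the member was 153 to 44726 bp, and the others overlap the member. Taken in order of start position, no neighbour was read in Cabernet Sauvignon for 21 members, 1 was for 15 and both were for 14. This order misses some models that enclose a member, such as VIT_12s0035g00030 around Grape_newGene_273, read at up to 74.8 CPM in Cabernet Sauvignon. The share over all models was not computed for these 3 numbers, so they mark no trait of the members. These classes of neighbours rest on measured values, so they are a description.

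A stretch of chromosome 12 held several of them. VIT_12s0035g00040 (19180773 to 19181785, minus) and Grape_newGene_273 both lie inside the span of VIT_12s0035g00030 (19171456 to 19423860, minus), 153178 bp apart with 8 models between them. VIT_12s0035g00040 had means of 4.19 ± 0.428, 4.43 ± 0.402, 5.49 ± 0.917 and 2.22 ± 0.399 CPM over the stages. VIT_12s0035g00050, VIT_12s0035g00140 and VIT_12s0035g00180, in the same span, had 0 counts in Cabernet Sauvignon, with highest Danfeng-2 means of 2.73 ± 2.38, 3.92 ± 1.30 and 3.86 ± 0.820 CPM. They fell short of the rule's 5 CPM. In Cabernet Sauvignon VIT_12s0035g00040 had 4 counts and Grape_newGene_273 had 2. The long model around them was read in both species, with a Danfeng-2 mean of at most 134.3 ± 1.01 CPM and a Cabernet Sauvignon mean of at most 74.8 ± 3.95 CPM.

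Near VIT_18s0117g00450, which was high at E-L 38, the non-member VIT_18s0117g00480 (chromosome 18, 23928437 to 23929443) was also highest at E-L 38. Its Danfeng-2 means were 0.0187, 0.0453, 0.0723 and 1.78 CPM at the 4 stages, and it had 0 counts in Cabernet Sauvignon. VIT_14s0036g00820 (chromosome 14, 11054624 to 11055695, plus) and VIT_14s0036g00990 lie 425469 bp apart with 11 models between them. They differed in shape, since VIT_14s0036g00820 had means of 8.58 ± 1.65 CPM in E-L 33 skin and 3.29 ± 0.481 CPM in E-L 38 skin and was called lower (log2 fold change -1.14, SE 0.25, adjusted p = 0.0031).

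Models whose span overlaps others were common, which may limit how their reads can be assigned. The span of 15 members (30.0%) overlapped another model, against 16.6% of all models and 14.8% of those at 5 CPM in Danfeng-2. All 15 overlapped at least 1 model on the same strand, and 9 lay wholly inside another model. Of the 6 newly predicted members 4 overlapped a model. These overlaps are of whole spans, and whether the counted parts of the models overlap was not examined. Whether the authors' counting used strand is not stated in the sources used here. How reads, sense or antisense, were divided between overlapping models is therefore not known. Some such models had separate counts. In Cabernet Sauvignon VIT_15s0046g00490 reached a mean of 141.4 CPM, while VIT_15s0046g00500 inside it had 0 counts.

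The only members next to each other were such a pair. Grape_newGene_969 (chromosome 18, 22876001 to 22876991, minus) lies wholly inside VIT_18s0075g01030 (22876001 to 22879017, minus). VIT_18s0075g01030 had 0.773, 0.672 and 0.533 CPM in E-L 33 skin, 7.51, 6.16 and 7.65 CPM in E-L 34 skin, 3.98, 4.35 and 3.86 CPM in E-L 35 skin, and 0.665, 0.744 and 0.455 CPM in E-L 38 skin. Grape_newGene_969 had 0.451, 1.23 and 0.959 CPM, 6.25, 5.57 and 6.20 CPM, 4.48, 3.59 and 4.63 CPM, and 0.732, 1.19 and 0.682 CPM. Both thus rose at softening and fell in the ripe berry, with no overlap between libraries on either change. Both reached 5 CPM at E-L 34 only, so a rise to that stage was favoured in advance and is a description. The log2 fold changes of E-L 34 over E-L 33 were 3.43 in VIT_18s0075g01030 (SE 0.24, adjusted p = 2.9e-05) and 2.77 in Grape_newGene_969 (SE 0.31, adjusted p = 0.00046). In the same order, those of E-L 38 over E-L 35 were -2.41 (SE 0.24, adjusted p = 2.7e-05) and -2.0 (SE 0.32, adjusted p = 0.00058). Since the spans of these 2 models overlap and reads may be split between them, they are not treated as independent.

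One overlap was opposite between the species. VIT_18s0001g11480 (chromosome 18, 9762169 to 9818505, plus) had 0, 0.672 and 0.640 CPM in E-L 33 skin, 4.49, 4.66 and 4.34 CPM in E-L 34 skin, 11.9, 3.11 and 2.18 CPM in E-L 35 skin, and 0.266, 0.0744 and 0.0758 CPM in E-L 38 skin in Danfeng-2, and 3 counts in all in Cabernet Sauvignon. VIT_18s0001g11430 (9725960 to 9791275, plus), which overlaps 51.7% of its span, had means of at most 0.111 ± 0.136 CPM in Danfeng-2. In Cabernet Sauvignon it had 28.9 ± 1.21, 83.3 ± 2.35, 11.2 ± 0.729 and 47.5 ± 1.20 CPM at the 4 stages. Each species thus read 1 model of the pair. The member's own place in the list rests on Danfeng-2 E-L 35 replicate 1, without which its highest mean was below 5 CPM.

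Elsewhere the model around a member was read in both species. VIT_15s0046g00500 lies wholly inside VIT_15s0046g00490 (chromosome 15, 17444733 to 17587199, plus). That model had means of 30.8 ± 6.07, 81.1 ± 3.17, 85.9 ± 13.3 and 30.1 ± 3.13 CPM in Danfeng-2 and 5.81 ± 0.786, 12.4 ± 4.54, 116.4 ± 2.84 and 141.4 ± 1.38 CPM in Cabernet Sauvignon. The member was highest at E-L 33 in Danfeng-2, where the surrounding model was at one of its low stages. VIT_12s0055g00180 (chromosome 12, 12758762 to 12760304, plus) lies inside VIT_12s0055g00160. The member had 11 ± 0.122 CPM in E-L 38 skin, where the surrounding model averaged 61.5 ± 1.82 CPM in Danfeng-2, against 1.34 ± 0.140 CPM in Cabernet Sauvignon. VIT_18s0041g00870 (chromosome 18, 25355265 to 25460608, plus) spans several smaller models and lies inside VIT_18s0041g00830 on the minus strand. That model had up to 219.1 ± 4.33 CPM in Danfeng-2 and up to 5.40 ± 2.17 CPM in Cabernet Sauvignon, both at E-L 34. Grape_newGene_944, inside the same member, had 0 counts in Cabernet Sauvignon and at most 4.38 ± 1.03 CPM in Danfeng-2.

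**Figure D5:**
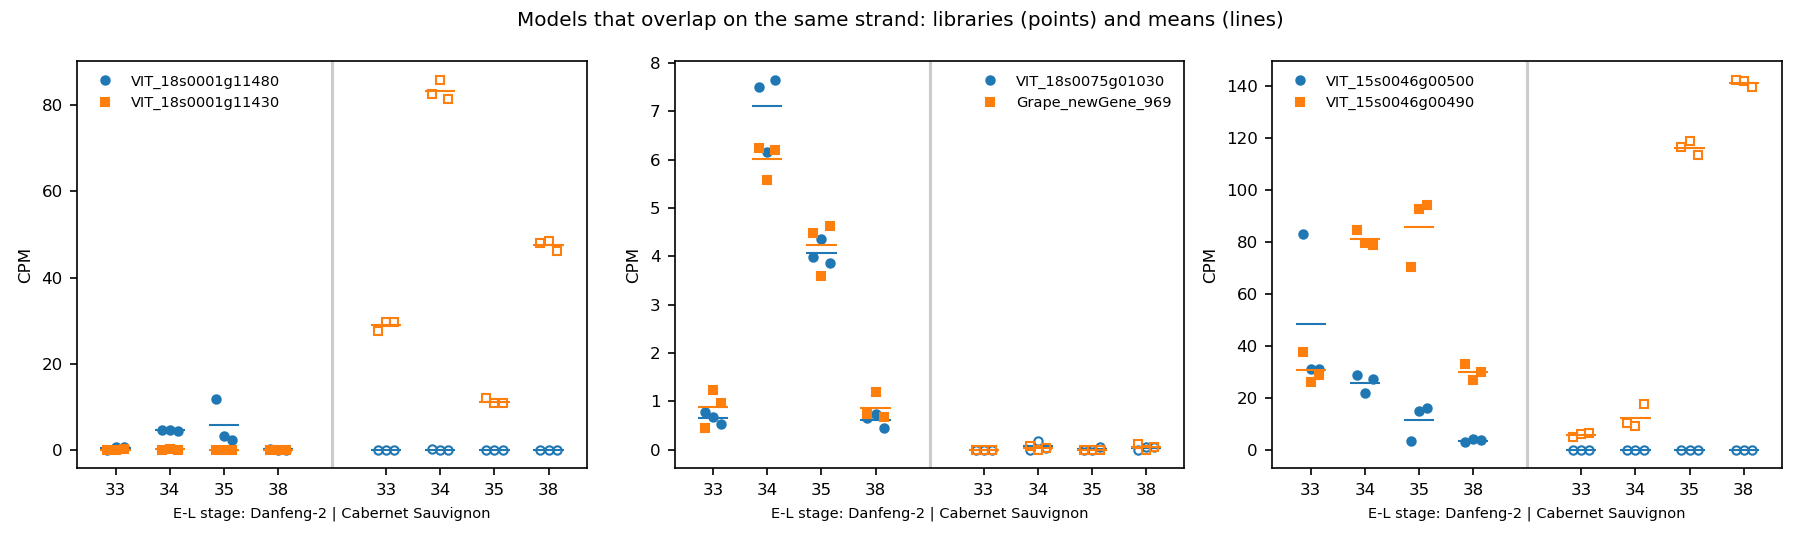
Level in CPM (linear axes) in each library by E-L stage for 3 pairs of models that overlap on the same strand, with filled points for Danfeng-2 on the left, open points for Cabernet Sauvignon on the right and lines at the means of 3 libraries. VIT_18s0001g11430 is at most 0.111 CPM on average in Danfeng-2 and up to 83.3 CPM in Cabernet Sauvignon, the reverse of its partner.

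The rule drew its line through a continuous range. Just inside the limit in Cabernet Sauvignon were VIT_18s0041g00870 (highest group mean 0.0916 CPM) and VIT_12s0035g02100 (0.0863 CPM). Just outside were VIT_16s0050g01680 (0.102 CPM), with a Danfeng-2 mean of 179.3 CPM in E-L 33 skin, and VIT_06s0061g00600 (0.105 CPM), with 9.57 CPM at its highest stage. At the limit in Danfeng-2, VIT_00s0540g00050 (5.32 CPM) and VIT_12s0035g00040 (5.49 CPM) were just inside. VIT_19s0014g01730 (4.92 CPM) and VIT_18s0001g04960 (4.64 CPM, with 0 counts in Cabernet Sauvignon) were just outside. VIT_00s0540g00050 (Un, 31580495 to 31581479, minus) was read mainly at E-L 35, with 5.71, 4.62 and 5.62 CPM there and 0.0702, 0.656 and 0.138 CPM in E-L 34 skin, and it was called higher (log2 fold change 4.10, SE 0.64, adjusted p = 0.0022). It reached 5 CPM at E-L 35 only, so a rise to that stage was favoured in advance and is a description.

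Single libraries decided 10 of the 50 memberships, 4 through a Danfeng-2 library and 6 through a Cabernet Sauvignon library. VIT_18s0001g11480 is the one that rested on Danfeng-2 E-L 35 replicate 1. VIT_09s0002g03160 (chromosome 9, 2902639 to 2907142, minus), VIT_15s0024g00960 (chromosome 15, 1836950 to 1838175, plus) and VIT_19s0090g00750 (chromosome 19, 6806654 to 6810321, plus) reached 5 CPM in E-L 33 skin through replicate 1. Their libraries there had 9.66, 3.81 and 4.96 CPM, 6.89, 5.66 and 4.10 CPM, and 9.08, 3.87 and 4.53 CPM. All 3 fell over the span, with log2 fold changes of -2.48, -1.29 and -3.21. In edgeR their adjusted p were 0.00044, 0.0046 and 0.00028. The same E-L 33 values put these models on the list, so a fall was favoured in advance and is a description. VIT_15s0024g00960 also lost its call in some other settings. VIT_05s0077g00170 on chromosome 5, with means of 83.1, 81.6, 66.6 and 77.7 CPM in Danfeng-2, missed the rule by its mean of 0.105 CPM in Cabernet Sauvignon at E-L 34. It would be a member without Cabernet Sauvignon E-L 34 replicate 1 or without replicate 3. Leaving out 1 Cabernet Sauvignon library raised a group mean to the limit in VIT_12s0035g02100, one of the 8 highest members, and in VIT_18s0041g00870, VIT_18s0075g01030, VIT_13s0067g03700, VIT_09s0018g00780 and VIT_16s0050g02130.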

How the data were processed

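RNA sequencing of berry skin was analysed in 24 libraries, 3 in each of 8 groups of species and stage. Per the labels' protocols, total RNA was made into standard Illumina libraries. TopHat2 is named in the submitters' processing notes. The counting program, its use of strand and the genome build are not stated in the sources used here. Each deposited table holds, per gene model, a read count, an FPKM value made by the authors, and a normalized signal by the authors that was not used. The deposited counts are whole numbers, some of which appear to be estimates rounded up. Library totals of 13201295 to 23095568 counts set the precision, so that 1 count was worth 0.0433 to 0.0758 CPM, and intervals and floors of 3 counts cover counting error only.

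CPM used column sums with Python 3.11.15, numpy 2.4.6, pandas 2.3.3 and scipy 1.17.1. Stages were compared in the 12 Danfeng-2 libraries with edgeR 4.0.16 (R 4.3.3, TMM scaling, its filter on low counts, quasi-likelihood test, Benjamini-Hochberg adjustment over 17073 models), and the code was tested on simulated data. A call needed an adjusted p below 0.05 and a 2-fold change. Alternatives were limma 3.58.1 on FPKM (log2 scale, pseudocount 1 or 0.1), DESeq2 1.42.0, other limits, libraries left out, and total counts without TMM, which was chosen after seeing the data.

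The members and lists were chosen with earlier results of these data known. The 30 named members were the 8 highest, the 5 steadiest of those at 5 CPM at all stages, the 5 largest rises and 5 largest falls of E-L 38 over E-L 33, the 5 highest newly predicted, adjacent members, those nearest each limit, and those whose membership rests on 1 library that stands apart. Other models named were chosen after their values were seen.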

Additional observations from a re-analysis of the deposited data

How the results depend on the processing

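The number of members followed the limits. It was 14 with 0 counts in all 12 Cabernet Sauvignon libraries, 95 at 2.5 CPM or more in Danfeng-2, 18 at 10 CPM or more, 27 with both limits held in every single library, and 81 with FPKM in place of CPM, of which 37 were among the 50. Under these settings newly predicted members numbered 2 (0 counts), 11 (2.5 CPM), 2 (10 CPM) and 10 (FPKM), and 2 without members that overlap another model. Those at the limit at all 4 stages numbered 0, 24, 3, 3 and 19 in the order of the settings first named, and 12 with Cabernet Sauvignon below 0.2 CPM. Leaving out 1 library gave 47 to 54 members, 6 to 7 newly predicted and 6 to 9 at all stages. Members called for E-L 34 over E-L 33 numbered 3 to 16 with 1 library left out, 19 without the 2 libraries that stand apart and 3 at an adjusted p below 0.01. At that last limit, 275 of all 17073 models were higher and 318 lower. The cause of this range was not tested. The other steps had 7 to 13, 24 to 32 and 27 to 30 calls with 1 library left out. Calls over all models moved as well. Without E-L 35 replicate 1 they were 950, 2033 and 2072 higher and 912, 2658 and 3264 lower, of 17354. Without E-L 34 replicate 1 they were 393, 1590 and 1930 higher and 429, 2426 and 3090 lower, of 17389. Among 720 values of the 30 named members, 699 stayed called or stayed uncalled, and 12 gained a call. Another 9 lost it (VIT_06s0080g01020, VIT_09s0018g01800 and VIT_15s0024g00960), and no called change reversed. The 699 include uncalled changes that turned direction, as in VIT_19s0176g00060 with total counts alone. With the replicate number as a block, 8, 9, 26 and 29 members were called. Of all 17073 models, 438, 534, 1632 and 1955 were then called higher and 559, 596, 2362 and 2954 lower. Same-numbered libraries did not deviate together (correlations of -0.13 to 0.05 over 18 pairs, 0 of 12 libraries closest to their own number). No pairing by number was thus seen, although 3 libraries in a group could miss a weak one. Depth limits the members near 0, where 1 count can move a fold change.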
